A study of Mus musculus with 8 samples.

Results

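The interferon regulatory factors are transcription factors that share a DNA-binding domain and recognize GAAA repeats in the promoters of interferon genes and interferon-stimulated genes. Irf3 and Irf7 switch on type I interferon genes downstream of pattern-recognition receptors, Irf9 carries interferon receptor signals to the nucleus, Irf1 and Irf2 act as an activator and a repressor on overlapping sites, and Irf4, Irf5 and Irf8 are best known from lymphoid and myeloid cells. Methylation of CpG cytosines around a start site is generally associated with a silent promoter, whereas methylation within gene bodies is common at genes of any activity. Irf1, Irf2, Irf3, Irf4, Irf5, Irf7, Irf8 and Irf9 were followed here. Their members were the cytosines with at least 10 reads in all 8 libraries that lie in the gene body (GENCODE M21, mm10) or in the 5000 bp before its start. These were 351 of the 1348 cytosines listed at the 8 genes in any library (26.0%), against 555155 of 3544233 (15.7%) on chromosomes 1 to 19 as a whole. After removal of the 0.1% of cytosines with the highest coverage, which took 3 cytosines at Irf3, 348 cytosines in 45 tiles of 1000 bp were left, of 550585 cytosines in 109507 tiles in all.

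The tumors were formed by NIC-5231 (NIC5231 in the sample labels), a mouse breast cancer cell line, after injection into a mammary fat pad of NSG mice aged 5 to 7 weeks. NSG mice lack lymphocytes and have impaired myeloid cells, so host leukocytes are few but not absent. The 4 groups of 5 mice were given vehicle (DMSO in saline and PEG), 5-azadC at a dose of 1 mg/kg, C29 at a dose of 10 mg/kg, or both (C29+5-azadC) at these doses, injected into the peritoneum every 2 days from the time tumors could be felt until tumors reached the size limit. C29 is an inhibitor of the nuclear receptor ERRα, whereas decitabine (5-azadC) replaces cytidine in DNA and traps DNA methyltransferases there. Each group was represented by 2 RRBS libraries, and a library pooled the tumor DNA of 2 mice. RRBS (reduced representation bisulfite sequencing) reads the methylation of CpG cytosines in a size-selected set of genomic fragments. All cells carry the same genes in this assay, so methylation in tumor cells and in host cells of the tumor cannot be told apart. Of the marker genes listed to check the tissue, 6 of 8 epithelial genes had a promoter tile with values, and 4 of these were below 10% methylated on average over the tiles of the gene, with Erbb2 highest at 53.1%. The Erbb2 tile of 13 cytosines was at or below 3.70% in all 8 libraries, and its tiles of 1 and 2 cytosines ranged from 17.1% to 100%. The Cdh1 tiles of 12 and 5 cytosines were at or below 12.3%, and its tile of 1 cytosine ranged from 14.3% to 100%. Ptprc, the pan-leukocyte marker Cd45 and the only 1 of 6 leukocyte genes with values, was 91.6% methylated on average, and none of 3 endothelial genes had values. Ptprc moved with the treatment, at 96.0%, 100%, 100% and 95.3% in the 4 libraries without 5-azadC and 91.8%, 94.3%, 84.1% and 71.7% in those with it (-12.3 points, 2 cytosines), and the part of host cells in the results was not tested.

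The libraries held between 51359825 and 81299065 reads over cytosines, with a median of 21 to 30 reads per cytosine. Unmethylated spike-in DNA read 0.216% to 0.329% methylated and methylated spike-in DNA 97.5% to 98.3%. The mean methylation over all 550585 cytosines was between 32.9% and 34.2% in the 4 libraries without 5-azadC and between 29.8% and 30.9% in the 4 libraries with it. Pooled over reads, C29 replicate 2 stood at 31.9%, below the other 3 libraries without 5-azadC (35.8% to 36.8%) and beside those with it (31.7% to 32.9%), so results that rest on it are also given without it or by library. Replicates differed by a median of 8.09 percentage points at the 45 Irf tiles (8.50 points at all tiles), and 19.4% of replicate pairs at Irf tiles were at least 25 points apart. Reads of an RRBS fragment carry no molecular identifiers here, and PCR copies cannot be told from separate molecules, so every interval, floor and test on reads covers counting error alone.

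The stretches of Irf4 that carry the largest part of its values are shown here, each on the plus strand of mm10, which is the coding strand of Irf4, with the CpGs measured in all 8 libraries in capitals. They are the pair of upstream cytosines, the pair of promoter cytosines, the 250 bases before the start, and the coding exon with the most measured cytosines.
Irf4 upstream, chr13:30747868-30747900: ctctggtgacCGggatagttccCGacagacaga
Irf4 promoter, chr13:30748476-30748539: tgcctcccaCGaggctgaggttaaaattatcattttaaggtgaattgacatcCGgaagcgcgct
Irf4 core promoter, chr13:30748976-30749225: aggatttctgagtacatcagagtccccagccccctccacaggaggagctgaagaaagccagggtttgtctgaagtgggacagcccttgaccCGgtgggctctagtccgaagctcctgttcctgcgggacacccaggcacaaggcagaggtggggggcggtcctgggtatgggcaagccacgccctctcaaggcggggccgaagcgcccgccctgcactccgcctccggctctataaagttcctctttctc
Irf4 coding exon, chr13:30757427-30757557: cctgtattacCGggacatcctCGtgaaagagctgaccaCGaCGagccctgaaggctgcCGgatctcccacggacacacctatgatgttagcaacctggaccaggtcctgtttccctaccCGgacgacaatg
Of the 11 CpGs in the 250 bases before the Irf4 start, 1 was measured in all 8 libraries, and it lies at -158 bp from the start. The coding exon holds 8 CpGs, of which 6 were measured.

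Irf4 (ENSMUSG00000021356.10, chromosome 13, 30749226 to 30766976, plus strand) encodes a factor required for plasma cell and effector T cell differentiation. With 29 cytosines in 7 tiles, its methylation was lower on average with 5-azadC in 7 of 7 tiles, and in 6 of 7 without C29 replicate 2, which alone was above 0% in the start tile. By pooled reads, 65.5% of all tiles were lower with 5-azadC than with DMSO. Over all its reads, Irf4 was methylated at 59.4% and 41.5% in the DMSO libraries, 54.2% and 32.7% with C29, 33.5% and 27.5% with 5-azadC, and 40.7% and 29.9% with C29+5-azadC. The C29 replicate 2 library lay below C29+5-azadC replicate 1, so the 4 libraries with 5-azadC and the 4 without overlapped. The means were 32.9% ± 5.76 (SD, n = 4) with 5-azadC and 47.0% ± 12.1 (SD, n = 4) without, a difference of -14.1 points (two-sided exact permutation test, p = 0.0857, with 0.0286 the smallest p that 4 against 4 can give). Among the 23144 genes with at least 3 cytosines, whose median difference was -1.78 points, this placed Irf4 at the 6.40 percentile, and no other member lay lower. With each cytosine weighted equally instead of each read, the 8 libraries read 53.3%, 39.4%, 52.0%, 37.9%, 32.7%, 27.1%, 37.7% and 23.5% in the same order. On that scale the libraries with 5-azadC all lay below those without by a narrow margin, with C29 replicate 2 at 37.9% next to C29+5-azadC replicate 1 at 37.7% (difference of means -15.4 points, exact permutation p = 0.0286). This p restates the non-overlap, which as a fall occurred in 11.8% of genes on that scale. Over all reads, C29 replicate 2 was the only library without 5-azadC that lay below a library with it. Leaving it out therefore removes the overlap by construction, and the difference was then -18.8 points.

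**Figure D1:**
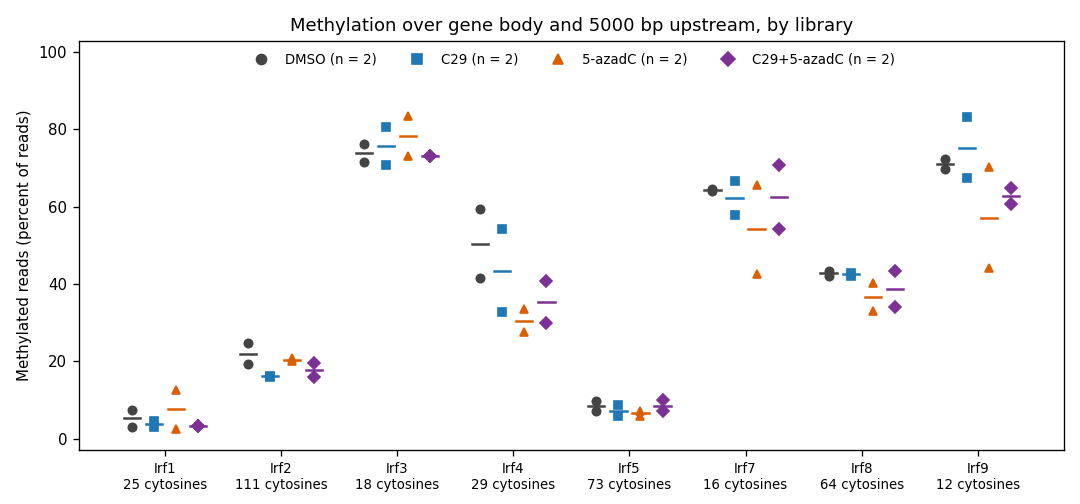
Percent of methylated reads over each gene body and the 5000 bp upstream (vertical axis) for the 8 Irf genes (horizontal axis, with the number of cytosines), 1 symbol per library and a short line at each group mean (n = 2 per group). Irf4 runs from 27.5% to 33.5% with 5-azadC and from 41.5% to 59.4% with DMSO, while Irf1 and Irf5 stay at or below 12.7% in all 8 libraries.

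The Irf4 promoter, here the 1000 bp before the start, was singled out by the study from these same libraries, so its values are a description and not independent evidence of a direction. The promoter tile at 30748001 to 30749000 holds 2 cytosines measured in all 8 libraries, both on the minus strand. It was methylated at 87.1% (128 of 147 reads, 95% Clopper-Pearson interval 80.6% to 92.0%) and 88.6% (78 of 88 reads) in the DMSO libraries, and at 71.8% and 74.3% with C29. It was methylated at 50% (27 of 54 reads, 36.1% to 63.9%) and 36.5% (73 of 200 reads, 29.8% to 43.6%) with 5-azadC, and at 68.4% and 43.5% with C29+5-azadC. All 4 libraries with 5-azadC lay below all 4 without, although C29+5-azadC replicate 1 and C29 replicate 1 were close. Relative to DMSO, pooled reads fell by 48.3 points with 5-azadC (q = 1.58e-28) and by 28.8 points with C29+5-azadC (q = 1e-11), and the value with C29 alone was 14.9 points lower, under the 25 points that a call required. Here q is the Benjamini-Hochberg adjusted p of a logistic likelihood-ratio test on pooled reads over all 109507 tiles, and a call needed q below 0.01 and 25 points. The combination was 19.5 points above 5-azadC alone and 13.9 points below C29 alone, neither of which was a call. A test of whether the 5-azadC effect differed with and without C29 gave an unadjusted F test p of 0.05001 and a q of 0.935. Once the spread between libraries entered the test (overdispersion-corrected F test of 4 libraries with 5-azadC against 4 without, adjusted over all tiles), q was 0.257.

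Most of the fall sat in 1 of the 2 cytosines. At the cytosine at -740, counted in bp from the start (30748486), methylation was 74.3% and 77.3% with DMSO, 43.5% and 48.6% with C29, 0% and 12.0% with 5-azadC, and 36.8% and 0% with C29+5-azadC. The cytosine at -697 (30748529) was at 100% in 6 libraries, at 61.0% in 5-azadC replicate 2 and at 88.1% in C29+5-azadC replicate 2. The CpG at -740 was also read on its other strand, with at least 10 reads in 7 of the 8 libraries. There the plus-strand cytosine (30748485) read 38.5% and 21.7% with DMSO, 36.2% and 22.2% with C29, 18.5% and 27.3% with 5-azadC, and 88.9% (8 of 9 reads) and 0% with C29+5-azadC, and these groups overlapped. The difference between DMSO and the combination was -0.874 points (q = 0.926) with both strands of a CpG summed and -8.89 points (q = 0.0233) with at least 5 reads per cytosine, so the call was lost under both. The 5-azadC call was lost, at -14.1 points, on the cytosines with 10 reads in its own 4 libraries, and the difference of the 4 libraries with 5-azadC from the others was -11.6 points with strands summed. Without C29+5-azadC replicate 2 the difference between DMSO and the combination was -19.3 points and without replicate 1 -44.1 points. Unequal strands were common in these libraries: of the CpGs at Irf genes measured on both strands with a mean level from 20% to 80%, of which there were 11, the strands of a library differed by a median of 26.3 points, against 26.0 points for 13084 such CpGs in the whole series.

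Nearer to the start, the only cytosine measured in all 8 libraries, at -158 (30749068), was at 0% in 7 libraries and at 32.0% (8 of 25 reads) in C29 replicate 2. The fewest reads there were 12, a depth at which a count of 0 allows up to 25%. Of the 25 cytosines listed in the 1000 bp upstream, 3 had 10 reads in all 8 libraries and 16 had them in at least 4. The 7 minus-strand cytosines from -70 to -24 that were covered had at least 10 reads in 7 libraries and no reads in C29+5-azadC replicate 1. At these, DMSO replicate 2 (12 reads), C29 replicate 2 and C29+5-azadC replicate 2 (10 reads) read 0% throughout. DMSO replicate 1 ranged from 0% to 73.8%, C29 replicate 1 from 0% to 100% (10 reads), 5-azadC replicate 1 from 0% to 37.8% and 5-azadC replicate 2 from 0% to 53.1%, so the groups overlapped. Several neighbouring cytosines of 1 library shared the same count, such as 17 of 61 reads at both -51 and -46 in DMSO replicate 1.

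The tile before the promoter (30747001 to 30748000) holds 2 plus-strand cytosines, at -1348 and -1336. It was methylated at 86.2% and 62.5% with DMSO, 78.0% and 22.8% with C29, 48.8% and 20.2% with 5-azadC, and 44.2% and 40.6% with C29+5-azadC. C29 replicate 2 fell among the libraries with 5-azadC. Against DMSO this tile was called lower with 5-azadC (-47.0 points, q = 4.47e-47) and with the combination (-33.8 points, q = 5.22e-20), the latter falling short of a call without DMSO replicate 1 (-19.7 points).

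In the gene body, the largest difference lay in the coding exon shown above, 8.2 to 8.3 kb after the start, where 11 cytosines on both strands form the tile at 30757001 to 30758000. Its methylation was 49.8% and 28.5% with DMSO, 38.1% and 42.6% with C29, 23.6% and 17.9% with 5-azadC, and 30.2% and 8.65% with C29+5-azadC. C29+5-azadC replicate 1 lay just above DMSO replicate 2, and the other 3 libraries with 5-azadC lay below all 4 without. The means were 20.1% ± 9.14 and 39.8% ± 8.91 (SD, n = 4 each), a difference of -19.7 points (exact permutation p = 0.0571, F test q = 0.314), and no contrast was called. Within this exon the plus-strand cytosine at 30757485 was at 57.1%, 28.4%, 23.8% and 26.2% without 5-azadC and at 9.29%, 3.91%, 0% and 0% with it, with 54 to 140 reads. Its minus-strand partner read 74.5%, 32.0%, 67.7% and 87.3% without and 41.2%, 4.35%, 98.3% and 54.5% with 5-azadC, so the groups overlapped on that strand.

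The other Irf4 tiles showed smaller mean differences with overlapping groups. Around 1.5 kb after the start, 6 cytosines ranged from 7.62% to 33.8% over the 8 libraries (mean difference -3.46 points with 5-azadC). An intron tile near 11 kb ranged from 48.7% to 80.2% (-3.22 points), and 2 cytosines of the terminal exon ranged from 0% to 61.4% (-11.2 points). Over the upstream stretch and the body together, 0 of the 29 Irf4 cytosines were below 5% in all 8 libraries and 2 of 29 were at 50% or more in all 8, against 43.1% and 16.4% of the cytosines of all 8 genes.

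**Figure D2:**
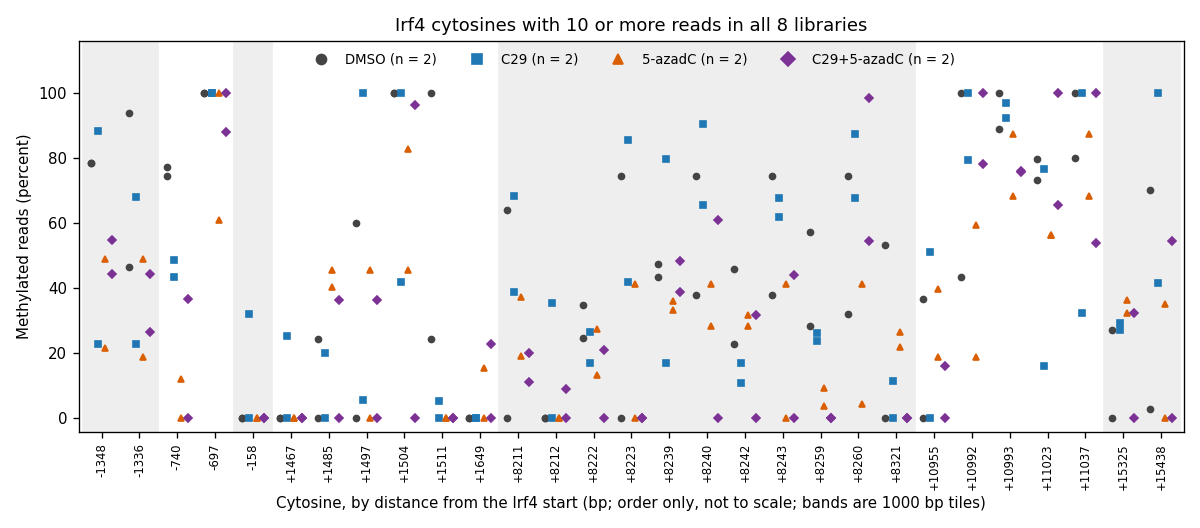
Percent methylation (vertical axis) of the 29 Irf4 cytosines measured in all 8 libraries, in order of their distance from the start (horizontal axis, bp, not to scale), 1 symbol per library, with grey and white bands for the 7 tiles. At -740 the 4 libraries with 5-azadC lie from 0% to 36.8% and the 4 without from 43.5% to 77.3%, while most other cytosines show overlapping groups.

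Irf1 and Irf2, the activator and repressor pair, had start regions that were almost free of methylation. Irf1 (ENSMUSG00000018899.16, chromosome 11, 53770014 to 53778374) read between 0% and 1.85% over the 22 cytosines of its start tile. An intron tile 4.7 kb downstream held 3 cytosines and varied from 21.3% to 87.3%, with both extremes in the 5-azadC group. Irf2 (ENSMUSG00000031627.9, chromosome 8, 46739732 to 46847458) was at or below 2.57% over the 20 cytosines of its promoter tile and at or below 0.869% over the 51 cytosines of the next. In the promoter tile the values were 2.57% and 2.23% with DMSO, 0% and 0% with C29, 0.845% and 1.03% with 5-azadC, and 0.127% and 0% with C29+5-azadC. All 4 libraries with C29 lay below the other 4 (exact permutation p = 0.0286), by a mean of 1.64 points, on 583 to 970 reads and next to a spike-in background of 0.216% to 0.329%. Any 4 libraries without overlap from the other 4 give this permutation p, so here and below it restates the non-overlap. Non-overlap lower with C29 occurred in 0.763% of all tiles, and in 1 of the 45 Irf tiles. A noncoding gene, Gm16675, overlaps this tile.

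Over its whole body Irf2 was at 23.3% with DMSO, and its distal introns were highly methylated. The 6 intron tiles from 17 to 92 kb after the start had DMSO means between 87.1% and 98.8%. The nearest of them, 3 cytosines near 17 kb (46756001 to 46757000), was at 100% and 74.1% with DMSO, 81.8% and 100% with C29, 87.3% and 100% with 5-azadC, and 75.0% and 32.9% with C29+5-azadC. It was called lower with the combination against DMSO (-32.4 points, q = 2.75e-10), against C29 (-30.9 points) and against 5-azadC (-37.3 points), and C29+5-azadC replicate 2 alone was far from the others. Without that library these were -12.3, -10.8 and -17.2 points and no calls, and without DMSO replicate 1 the difference from DMSO was -19.2 points. At 43.7 kb after the start, a minus-strand cytosine (46783391) was at 100% in the 4 libraries without 5-azadC and at 82.8%, 97.4%, 61.5% and 65.0% with it.

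Irf3 and Irf7, which induce type I interferon genes, were read at few positions near their starts. Irf3 (ENSMUSG00000003184.15, chromosome 7, 44997648 to 45002848) had 2 cytosines just after its start, at 0% in all 8 libraries (0 of 46 reads in the shallowest, which allows up to 6.52%). Its remaining 16 cytosines lie about 4.7 kb upstream, where Bcl2l12 and Gm15545 are also annotated. They were methylated at 90.1% and 92.3% with DMSO, 90.1% and 94.8% with C29, 89.3% and 85.0% with 5-azadC, and 87.4% and 85.1% with C29+5-azadC. Pooled over the 16 cytosines, the groups did not overlap, with a mean difference of -5.12 points. The tile with 14 of them (44992001 to 44993000) had overlapping groups. It was at 89.0%, 91.9%, 88.8% and 94.1% without 5-azadC and at 90.3%, 85.5%, 86.5% and 83.4% with it. Within this stretch a tile of 2 cytosines (44993001 to 44994000) was at 77.1% and 80.6% with 5-azadC alone and at 100% in the other 6 libraries, C29+5-azadC included. Irf7 (ENSMUSG00000025498.15, chromosome 7, 141262706 to 141266481, minus strand) had 2 cytosines near its start at 0% in all 8 libraries (0 of 40 reads in the shallowest, which allows up to 7.50%). A tile of 4 exon cytosines, about 2.3 kb into the gene (141264001 to 141265000), went the other way. It was at 69.3%, 63.5%, 68.8% and 67.8% without 5-azadC and at 78.1%, 71.5%, 76.1% and 73.1% with it, a difference of 7.35 points without overlap (exact permutation p = 0.0286, F test q = 0.299). This direction turned to -2.49 points both with at least 5 reads per cytosine and with strands summed. Upstream of Irf7, where Cdhr5 lies, 7 cytosines ranged from 34.4% to 67.7%.

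Irf9 (ENSMUSG00000002325.15, chromosome 14, 55603571 to 55610030), the DNA-binding subunit of the ISGF3 complex, had 12 cytosines. The 8 upstream ones, within Rnf31, were at 90.7% and 85.0% with DMSO, 86.9% and 92.1% with C29, 70.1% and 81.0% with 5-azadC, and 85.1% and 87.2% with C29+5-azadC. Both 5-azadC libraries were the lowest, and the combination lay among the libraries without 5-azadC. The start tile varied from 0% to 42.8%, the highest in DMSO replicate 1 and the lowest in 5-azadC replicate 1. A single coding-exon cytosine 4.2 kb after the start (55607785) gave the only tile called higher at any Irf gene. It was at 4.76% and 52.2% with DMSO, 30.4% and 96.6% with C29, 55.9% and 22.2% with 5-azadC, and 100% and 100% with C29+5-azadC, on 14 to 54 reads. It was called higher with C29 (30.0 points, q = 0.00256) and with the combination (62.7 points, q = 1.22e-10) against DMSO. The C29 value rests on C29 replicate 2, since without it the difference was -6.88 points, and without DMSO replicate 1 it was 15.1 points and no call. Against C29 the combination was higher by 32.7 points, and by 3.45 points without C29 replicate 1.

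Irf5 and Irf8 act in myeloid and B cells, Irf5 downstream of Toll-like receptors and Irf8 in monocyte and dendritic cell development. Irf5 (ENSMUSG00000029771.12, chromosome 6, 29526625 to 29541871) has a CpG-dense start, and its start tile of 63 cytosines ranged from 1.93% to 6.69%. Single promoter cytosines stood out from this low level and are shown with the coding exon that carries the largest fall at the gene, in capitals as before.
Irf5 promoter at -327, chr6:29526288-29526308: gagttggagCGgtcCGgaggg
Irf5 promoter at -80, chr6:29526525-29526565: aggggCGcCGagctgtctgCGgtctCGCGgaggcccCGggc
Irf5 coding exon, chr6:29536548-29536608: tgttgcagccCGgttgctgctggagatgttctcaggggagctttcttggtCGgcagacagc
The minus-strand cytosine at -327 (29526298) was at 71.0%, 100%, 100% and 18.9% without 5-azadC and at 0%, 0%, 0% and 7.69% with it. The minus-strand cytosine at -80 (29526545) was at 47.1%, 100%, 56.1% and 16.7% without and at 3.12%, 0%, 0% and 0% with 5-azadC. Its plus-strand partner read 0%, 33.3%, 0% and 14.1% without and 0%, 53.7%, 0% and 0% with 5-azadC, so the groups overlapped on that strand. In the coding exon 9.95 kb after the start, the tile of 2 cytosines (29536001 to 29537000) was at 88.9% and 100% with DMSO, 93.8% and 100% with C29, 82.1% and 57.9% with 5-azadC, and 60.9% and 53.8% with C29+5-azadC. All 4 libraries with 5-azadC lay below the other 4, with means of 63.7% ± 12.6 and 95.7% ± 5.39 (SD, n = 4 each) and a difference of -32.0 points (exact permutation p = 0.0286). This was the largest mean fall with 5-azadC at any Irf tile, and its F test q of 0.195 was the lowest. It was called against DMSO with 5-azadC (-27.2 points, q = 9.24e-09) and with the combination (-37.6 points, q = 1.49e-12), and in the combination against C29 (-38.7 points, q = 8.32e-16). The 5-azadC call was lost without 5-azadC replicate 2 (-11.9 points) and without DMSO replicate 2 (-22.0 points). The second CpG of the stretch (29536598) carried the difference, at 100%, 100%, 87.5% and 100% without and 64.3%, 16.7%, 21.7% and 38.5% with 5-azadC. Irf5 tiles that overlap the 1000 bp before another start site of the gene were higher on average with 5-azadC, with overlapping groups. The 5 cytosines at 29527001 to 29528000 ranged from 8.28% to 51.8% (7.35 points). The 3 cytosines at 29528001 to 29529000 ranged from 0% to 60.8% (16.4 points).

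Irf8 (ENSMUSG00000041515.10, chromosome 8, 120736358 to 120756694) was covered by 64 cytosines in 12 tiles, and its mean was lower with 5-azadC in 11 of them. Of all tiles, 65.5% were lower with 5-azadC than with DMSO over pooled reads. The long noncoding gene Gm20388 is annotated over the whole stretch, so the tiles do not belong to Irf8 alone. The tile across the start was at or below 7.54%. The tile before it, 3 promoter cytosines, was at 19.8% and 63.0% with DMSO, 33.3% and 56.9% with C29, 0% and 13.6% with 5-azadC, and 33.3% and 22.5% with C29+5-azadC. It was called lower with 5-azadC against DMSO (-26.9 points, q = 1.53e-08), and DMSO replicate 1 lay below both combination libraries. The call was lost without DMSO replicate 2 (-9.65 points) and without 5-azadC replicate 1 (-23.4 points). The promoter tile at 120737001 to 120738000, 1 intron cytosine, ranged from 43.2% to 100% with overlapping groups (-15.97 points with 5-azadC). In 15 cytosines about 3.5 kb into the gene, 13 of them coding (120739001 to 120740000), methylation was 5.76%, 8.16%, 5.80% and 25.8% without 5-azadC and 3.15%, 1.05%, 3.98% and 1.25% with it, on 641 to 1238 reads. The groups did not overlap (exact permutation p = 0.0286, as for any non-overlap), the mean difference was -9.02 points, and it was -4.22 points without C29 replicate 2.

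Towards the 3′ end of Irf8, 5 cytosines in 2 coding exons and the adjoining untranslated stretch were lower in all 4 libraries with 5-azadC. They were named for this non-overlap, which as a fall occurred at 1.48% of all cytosines. The coding stretches that hold 4 of them are shown, with measured CpGs in capitals.
Irf8 coding exon at 17 kb, chr8:120753501-120753540: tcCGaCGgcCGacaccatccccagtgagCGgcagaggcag
Irf8 coding exon at 19 kb, chr8:120755104-120755180: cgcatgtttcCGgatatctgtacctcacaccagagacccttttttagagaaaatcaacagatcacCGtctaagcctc
At 120753511 the values were 100%, 98.9%, 100% and 100% without 5-azadC and 65.7%, 67.1%, 60.9% and 95.4% with it. At 120755170 they were 68.1%, 58.2%, 58.3% and 57.1% without and 13.8%, 35.5%, 30.9% and 36.6% with 5-azadC. The tile at 120753001 to 120754000, with 10 coding cytosines, was at 94.7%, 90.3%, 95.7% and 91.5% without and 68.6%, 80.4%, 84.5% and 90.7% with 5-azadC, so 1 pair of libraries overlapped (-12.0 points, exact permutation p = 0.0571). A noncoding-exon cytosine before these (120752307) was the only Irf cytosine higher in all 4 libraries with 5-azadC, at 0%, 0%, 0% and 13.3% without and 36.1%, 40.3%, 22.9% and 35.4% with it. Its tile of 3 cytosines (120752001 to 120753000) also overlaps a promoter. The tile was at 0%, 0%, 20% and 5.19% without and 23.3%, 26.4%, 7.69% and 23.6% with 5-azadC (13.9 points). Against DMSO it was 24.7 points higher with 5-azadC (pooled logistic q = 2.88e-19), just short of the 25 points of a call.

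**Figure D3:**
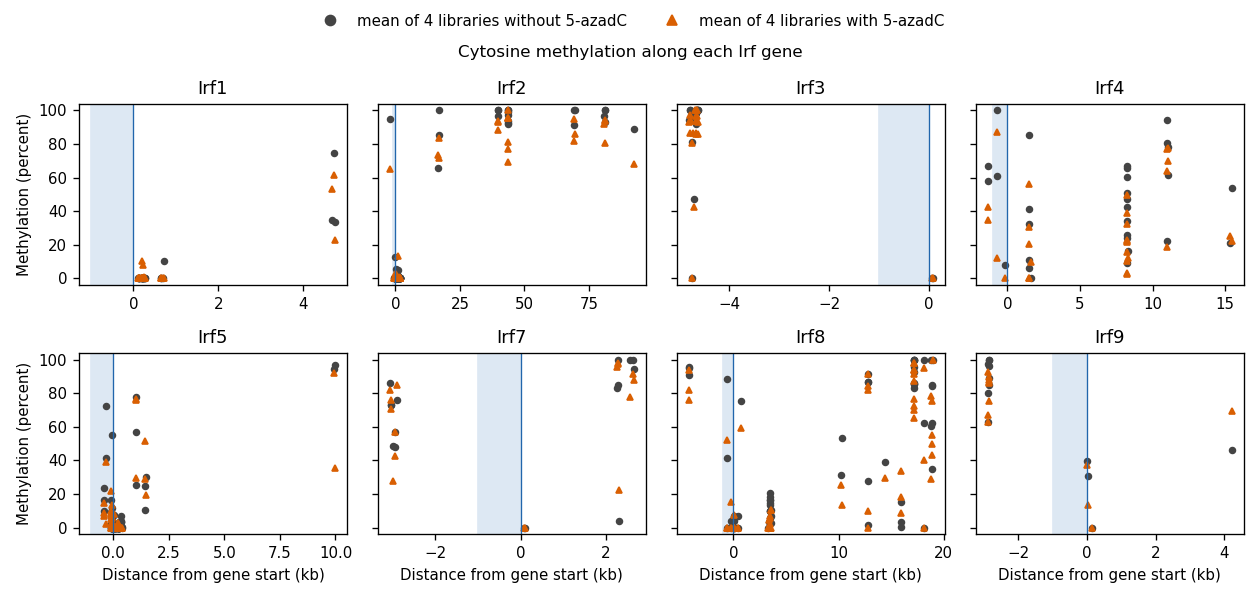
Percent methylation (vertical axis) of each measured cytosine against its distance from the gene start (horizontal axis, kb) for the 8 Irf genes, as the mean of 4 libraries without 5-azadC (circles) and 4 with it (triangles), with the 1000 bp promoter shaded. Most cytosines around the starts of Irf1, Irf2, Irf3 and Irf7 lie at or near 0% in both, whereas those of Irf4 are spread along the gene.

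Set side by side, Irf4 and Irf9 had the largest gene-level differences with 5-azadC over reads. Irf9 was at 60.02% ± 11.3 with and 73.2% ± 6.94 (SD, n = 4) without, a difference of -13.1 points (exact permutation p = 0.0857), which was -7.85 points without 5-azadC replicate 1. Irf8 differed by -4.99 points and Irf7 by -4.92 points, and Irf1, Irf2, Irf3 and Irf5 by 0.945, 0.0698, 0.954 and -0.328 points. The sign turned when single libraries were left out at Irf1, Irf2, Irf3 and Irf5, and also at Irf7 (0.320 points without 5-azadC replicate 1). The median over the 8 genes was -2.62 points, against -1.78 points over the 23144 genes. No Irf gene had non-overlapping groups over its reads, which occurred as a fall in 6.18% and as a rise in 0.471% of genes. With cytosines weighted equally, 4 of 8 did (Irf2, Irf3, Irf4 and Irf8), all as a fall, on a scale where 11.8% of genes fell and 0.281% rose without overlap. On that scale the difference was -7.68 points at Irf8, -4.85 at Irf9, -3.75 at Irf3 and -2.01 at Irf2, and the -15.4 points of Irf4 were the lowest of the 8. By region, the Irf4 gene body of 24 cytosines was at 31.3% with and 43.1% without 5-azadC (-11.8 points). The 3 Irf4 promoter cytosines were at 40.7% and 60.2% (-19.5 points). Groups overlapped in both regions, and whether the regions differed was not tested. The promoter cytosines of Irf2, Irf5 and Irf8, the other members with any in all 8 libraries, stood at 0.904%, 10.8% and 14.9% without 5-azadC and differed by -0.904, -4.61 and -6.20 points.

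At the level of tiles, 4 of 45 Irf tiles were called lower and 0 higher with 5-azadC against DMSO, beside 12.7% of all tiles lower and 2.67% higher (15.4% in either direction). They were the 2 Irf4 tiles upstream of the start, the Irf5 exon tile and the Irf8 promoter tile. With C29+5-azadC against DMSO, 4 were lower (2 of Irf4, 1 of Irf5, 1 of Irf2) and 1 higher (Irf9), beside 11.6% and 3.46% (15.1% in either direction). With C29 against DMSO, 0 were lower and 1 higher (Irf9), beside 5.41% and 5.17% (10.6%). Against C29, 2 Irf tiles were lower with the combination and 1 higher, beside 11.4% and 3.64% (15.0%). Against 5-azadC, 1 was lower and 1 higher, beside 5.96% and 7.94% (13.9%). These shares are near or under the background, so the Irf genes were not set apart by their number of calls. The F test of 2 libraries against 2 and edgeR's quasi-likelihood test called 0 Irf tiles at q below 0.05 in every contrast, and 0.00% of all tiles. On simulated tiles, few of which were given known falls, these tests made no calls either at a set spread beyond counting error. The spread and the share of changed tiles in the real libraries may differ. The 0s are therefore not read as a lack of change at single tiles. At unadjusted p below 0.05 the F test gave 1, 3, 1, 1 and 2 Irf tiles in the order of C29, 5-azadC and C29+5-azadC against DMSO and of the combination against C29 and against 5-azadC, beside 4.34%, 7.09%, 5.91%, 5.59% and 4.42% of all tiles, and edgeR gave 1 or 2, beside 2.15% to 4.02%. The comparisons with DMSO share the DMSO libraries, so their calls at the same tile are not independent.

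Over all 8 libraries, 3 of 45 Irf tiles were lower in all 4 libraries with 5-azadC (6.67%, against 5.28% of all tiles), the Irf4 promoter, the Irf5 exon and the Irf8 coding tile. The Irf7 tile was the 1 that was higher (0.295% of all tiles). The mean difference was below 0 in 34 of 45 tiles (35 without C29 replicate 2), with a median of -7.83 points at Irf tiles and -4.72 points at all tiles. A fall was also the rule among all tiles. Over pooled reads against DMSO, 30 of 45 Irf tiles were lower with 5-azadC and 34 with the combination, beside 65.5% and 60.8% of all tiles. The F test of 4 against 4 called 0 Irf tiles and 0 of 109507 tiles, and 8 Irf tiles had an unadjusted p below 0.05 (13.9% of all tiles). On the simulated tiles with such a spread this test, there with a term for C29 added, also made no calls. edgeR called 0 as well, with 2 Irf tiles at unadjusted p below 0.05 (5.3% of all tiles). The corresponding test of C29 also called 0, with 3 Irf tiles at unadjusted p below 0.05 (6.37% of all tiles), and a median difference of 0 points. Whether the 5-azadC effect differed with and without C29 was tested likewise, with 0 calls and 0 Irf tiles at unadjusted p below 0.05 (5.28% of all tiles). The Irf4 promoter tile lay at that limit, with an unadjusted F test p of 0.05001. Counted by single cytosines, a measure added after the data had been seen, 12 of 348 were lower in all 4 libraries with 5-azadC (3.45%, against 1.48% of all cytosines) and 1 was higher (0.197%). Of the 12, 5 lie in Irf8, 3 in Irf4, 3 in Irf5 and 1 in Irf2, and for C29 0 of the 348 did not overlap in either direction (0.417% lower and 0.478% higher of all cytosines).

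**Figure D4:**
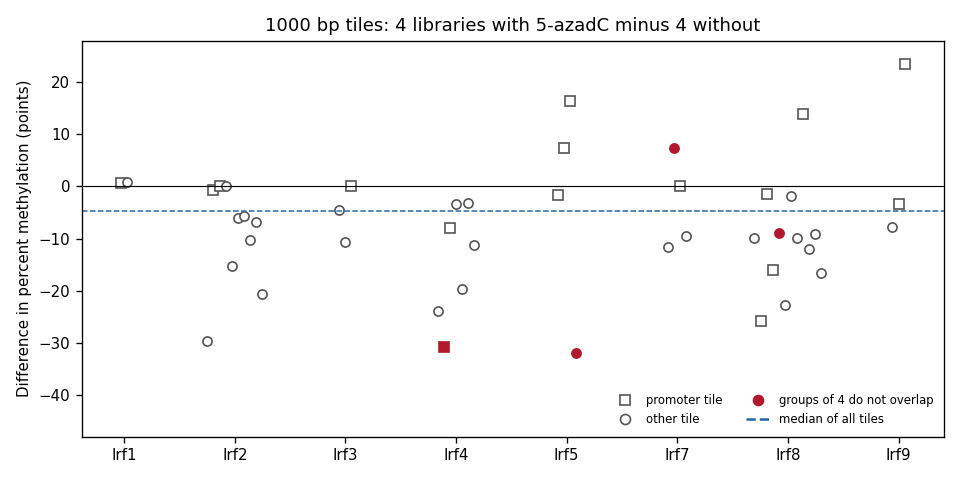
Difference in percent methylation (vertical axis, points; mean of 4 libraries with 5-azadC minus mean of 4 without) of the 45 Irf tiles by gene (horizontal axis), squares for promoter tiles and circles for others, filled red where the groups of 4 do not overlap, with a dashed line at the median of all tiles (-4.72). The lowest points are the Irf5 exon tile (-32.0) and the Irf4 promoter tile (-30.8), and 7 of 7 Irf4 tiles lie below 0, 6 of 7 without C29 replicate 2.

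The base composition of the starts differed among members. In RefSeq's 300-base promoters (GRCm38.p6), which matched all 8 genes with 11 promoters, the Irf4 promoter held 11 CpGs and the Irf5 promoter 35, against a median of 7 over 32851 promoters. The 2 promoters of Irf1 held 32 and 43 CpGs, and the more distal Irf8 promoter held 38. The core of the element bound by Irf proteins, read as GAAA, any 2 bases and GAAA again, was found on either strand in 1 of the 11 promoters, that of Irf2, where GAAAATGAAA begins at -241 from the RefSeq start (3.44% of all promoters hold this core). TCAAGGTCA, the extended element bound by estrogen related receptors, was found on neither strand of the 11 (0.423% of all promoters).

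Of 40 genes that induce interferon or carry its signals (receptors, kinases, adaptors, signal transducers and Irf partners), 31 had a promoter tile with values, 48 tiles in all. The calls lay in tiles of 1 cytosine. With 5-azadC against DMSO, Tlr3, the receptor for double-stranded RNA, was lower (-53.1 points), as was Ikbke, a kinase of Irf3 and Irf7 (-30.6 points over pooled reads), and Stat2, the partner of Irf9, was higher (37.2 points), beside 7.18% of all promoter tiles called. With the combination against DMSO, Tlr3 (-58.3 points) and Ddx58, the RNA sensor RIG-I (-32.6 points), were lower (6.99% of promoter tiles), and with C29 Ikzf3, a lymphoid factor that works with Irf4, was lower (-39.7 points, 4.93%). Against C29, 3 tiles were lower with the combination and 3 higher (6.87% of promoter tiles called), led by Ikbke (-35.7 points) and Tlr3 (-35.4 points) and by Ikzf3 (33.1 points) and Mavs (31.7 points), an adaptor of RNA sensors. Against 5-azadC, 2 were lower (6.26%), Ddx58 (-32.6 points) and Stat2 (-25.3 points). The Ikbke cytosine read 0% and 54.8% with DMSO but 91.7% and 0% with 5-azadC, so the mean of the libraries was higher with 5-azadC and the fall exists only over pooled reads. The Stat2 cytosine read 54.5% and 1.59% with DMSO and 50% and 55.2% with 5-azadC, so the rise rested on DMSO replicate 2. The Tlr3 cytosine was at 100% in 4 libraries, 44.0% in C29 replicate 2, 0% in 5-azadC replicate 2 and 41.7% in both combination libraries. The Mavs cytosine read 96.3% and 14.3% with C29 and 100% in both combination libraries, so its rise rested on C29 replicate 2. The Ddx58 fall was that of C29+5-azadC replicate 2, at 34.8%, with the other 7 libraries at 92.2% or more. None of the 48 tiles had non-overlapping groups for 5-azadC, beside 3.31% lower and 0.427% higher of all promoter tiles.

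The promoter tiles most like those of Irf4, by root mean square difference over the 8 libraries among 16944 promoter tiles of protein-coding genes, depended on the tile. The tile with the Irf4 start was closest to Tspan18 (2.91 points), Pcdhb2 (3.09), Ptprr (3.11), Rai14 (3.54) and Twf2 (4.37), all near 0% except in C29 replicate 2, and 367 tiles lay within 10 points. For the methylated tile upstream of it, a comparison added after the data had been seen, Dnm1 (8.33 points) and Rara (9.79 points) were the 2 within 10 points.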

How the data were processed

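Per the labels, tumor DNA was profiled by RRBS at Diagenode, and the submitters' processing notes name FastQC 0.11.8, Trim Galore 0.4.1, Bismark 0.20.0 and methylKit 1.7.0 with the mm10/GRCm38 build. The values deposited by the authors are, per CpG cytosine and strand, the fraction of methylated reads and the number of reads (a count), neither normalized. Fraction times count gave whole methylated reads within 0.01 for at least 99.9997% of the cytosines of each library. Cytosines with at least 10 reads in all 8 libraries on chromosomes 1 to 19 were kept, without the 0.1% of highest coverage, and summed over 1000 bp tiles. All 351 cytosines lie in a CG of the reference.

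Groups came from the sample titles. The pooled logistic likelihood-ratio test of methylKit was rewritten in Python 3.11.15 (NumPy 2.4.6, SciPy 1.17.1, pandas 2.3.3), with Benjamini-Hochberg q over 109507 tiles. The F test scaled the likelihood ratio by an overdispersion of at least 1. edgeR 4.0.16 (limma 3.58.1, R 4.3.3) fitted methylated and unmethylated counts together. Exact permutation tests were two-sided, and with 2 libraries against 2 they cannot go below 0.33. Any non-overlap of 4 against 4 gives 0.0286, so at tiles named for non-overlap this p is no further evidence. Tests were checked on simulated tiles. A promoter tile overlapped the 1000 bp before any start site of the gene. Figures used matplotlib 3.10.9.

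The members and gene lists were chosen with earlier results of these data known. All 8 members were named, with tiles that overlap a promoter, were called, or did not overlap for 5-azadC, every Irf4 tile, and at most 4 called partner genes per comparison. Single cytosines were named when their groups did not overlap, a choice made after seeing the data. Replicate numbers did not pair libraries (correlations of deviations from -0.0078 to 0.0116). Nothing says that pools within a group shared no mouse. The permutation, F test and edgeR p-values therefore measure the spread between these libraries, and those of the pooled logistic test cover counting error alone. Alternatives covered coverage, tile length, strands, scaling, test, region and each library left out.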

Additional observations from a re-analysis of the deposited data

How the results depend on the processing

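The counts of called Irf tiles rested on few cytosines and moved with most settings, and the cause was not tested. In the order C29, 5-azadC and C29+5-azadC against DMSO, then C29+5-azadC against C29 and against 5-azadC, the counts were 1, 4, 5, 3 and 2. Both the overdispersion-corrected F test at q below 0.01 and edgeR at q below 0.05 gave 0 in each. A minimum difference of 10 points gave 8, 22, 15, 15 and 14. Tiles with at least 3 cytosines, a smaller set, gave 0, 1, 1, 1 and 1. Tiles of 500 bp gave 4, 7 and 6 for C29 and 5-azadC against DMSO and for the combination against 5-azadC. Cytosines with 10 reads in the 4 libraries compared gave 4, 9, 6 and 4 for all but 5-azadC against DMSO. Summed strands gave 4, 8 and 4 for C29 against DMSO and for the combination against C29 and against 5-azadC. At least 5 reads gave 8, 5 and 4 for the combination against DMSO, C29 and 5-azadC, and at least 20 reads gave 0 for C29 against DMSO and for the combination against 5-azadC. Leaving out each library in turn gave ranges of 3 to 6, 7 to 11, 6 to 9, 5 to 10 and 5 to 6.

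Of Irf tiles without overlap for 5-azadC, 4 in all, 2 were left among tiles of at least 3 cytosines and 1 with strands summed, and 4 to 7 were found with a library left out (7 without DMSO replicate 2 or C29+5-azadC replicate 2). For C29, 1 tile became 2 at 5 reads and 0 at 20 reads, and 1 to 3 with a library left out (3 without either DMSO library). The count of Irf genes without overlap, 0 over reads, was 1 at 20 reads and with strands summed (Irf8 in both), 4 with cytosines weighted equally, and 0 to 1 with a library left out (Irf4 without C29 replicate 2, Irf9 without 5-azadC replicate 2, Irf8 without C29+5-azadC replicate 2). The Irf4 promoter difference of the combination from DMSO, -28.8 points, was -8.89 at 5 reads, -0.874 with strands summed and -17.2 over the 1000 bp upstream of the start itself, all short of a call. The F test gave -28.8 points with q = 0.804, and with a library left out the difference ran from -44.1 to -19.3. Directions also reversed. The Irf9 exon tile with C29 ran from -6.88 points without C29 replicate 2 to 62.5 points without DMSO replicate 2, and the Irf7 exon tile with 5-azadC was -2.49 points at 5 reads and with strands summed. Fitting the replicate number as a block left the Irf4 promoter call in place, at -28.8 points (q = 6.76e-12), and changed no other count. Of the gene differences, that of Irf9 was -4.85 points with cytosines weighted equally, and that of Irf7 turned to 0.320 points without 5-azadC replicate 1. Those under 1 point changed sign, Irf3 between -4.24 with strands summed and 18.6 at 20 reads, Irf1 to -1.46 without 5-azadC replicate 2, Irf2 to -1.13 with strands summed and Irf5 to 2.50 over the gene body. The 6 Irf tiles of 1 cytosine had 11 to 32 reads in their shallowest library.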
